A study of Mus musculus with 31 samples.

Results

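A group of 10 genes of a kinase pathway that acts on the actin filament was examined in the caudate putamen (CPu, the dorsal striatum) of *Brd1*+/- and WT mice. They are the LIM kinases *Limk1* and *Limk2*, the cofilins *Cfl1* and *Cfl2*, the upstream kinases *Pak1*, *Pak3*, *Rock1* and *Rock2*, and the slingshot phosphatases *Ssh1* and *Ssh2*. These 10 genes were taken by name from a table of 52636 genes, and all 10 passed the filter on low values. The pathway was selected on the vehicle values of *Limk1*, which were lower in *Brd1*+/- than in WT mice. The difference between the genotypes under vehicle therefore chose the genes and is given as a description, with no test.

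Cofilins bind actin filaments and sever or depolymerize them, which keeps actin turning over. LIM kinases phosphorylate cofilin on a serine next to its amino terminus and thereby switch off its binding to actin, and slingshot phosphatases remove that phosphate. The LIM kinases are in turn activated by PAK kinases downstream of Rac and Cdc42 and by ROCK kinases downstream of RhoA. In neurons this pathway is known for shaping dendritic spines and growth cones. Activity in it is set by phosphorylation, which transcript levels do not measure.

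CPu was punched from the right hemisphere of frozen brains of 31 female mice, 8 to 11 weeks old, on a C57BL/6NTac background. Saline vehicle was given to 8 WT and 7 *Brd1*+/- mice. Imipramine (IMN), a tricyclic antidepressant, was given at 10 mg/kg to 8 mice of each genotype. *Brd1*+/- mice carry a single targeted allele of *Brd1*, which encodes a chromatin scaffold protein, in every cell of the body and from conception, and the WT mice were matched to them by litter. All 4 groups received injections under the skin on consecutive days, went through open field, tail suspension and forced swim tests, and were killed after the last of these, so no group is free of injection and swim stress. Values are TPM, transcript abundances corrected for transcript length and for the total of each library, so levels may be compared between genes. In a punch of mixed tissue, fewer cells of a type and less RNA per cell cannot be told apart.

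The labels and the tissue were checked first. *Brd1* itself lay between 18.3 and 26.9 TPM in WT and between 11.1 and 16.0 TPM in *Brd1*+/- mice under vehicle, and between 14.6 and 22.5 TPM and between 11.3 and 13.8 TPM under IMN, without overlap in either case. The 31 punches were not alike in tissue. The summed level of 10 markers of cortical glutamatergic neurons, among them *Slc17a7*, *Neurod6* and *Tbr1*, ran from 10.2 to 2014 TPM (median 1495) in WT vehicle, from 18.8 to 239 TPM in *Brd1*+/- vehicle, from 10.0 to 1097 TPM in WT IMN and from 14.6 to 397 TPM in *Brd1*+/- IMN mice. The summed level of 10 striatal projection neuron markers, among them *Drd1*, *Drd2* and *Adora2a*, ran from 276 to 10474 TPM in WT vehicle mice and from 5050 to 9819 TPM in the other groups. All 10 cortical markers had a group median above 0.1 TPM in 3 groups, and 9 of 10 had one in *Brd1*+/- IMN mice. On a cortical score, the mean log2(TPM + 1) of the 10 cortical markers, 8 mice stood apart with scores of 4.37 or more. These were WT vehicle mice 1, 2, 3, 4, 5 and 7 and WT IMN mice 5 and 8, and the other 23 mice scored 3.66 or less. WT vehicle mouse 7 also carried 26.8 TPM of 4 Y-linked genes, against at most 0.188 TPM in every other mouse, which goes against its label as female. Results that rest on these mice are given with and without them.

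The cofilins are the substrates of the pathway, and the start of their coding sequence shows the site on which the kinases and phosphatases act. The first 30 coding bases of both mouse cofilins, 5′ to 3′, are shown because both share the serine that LIM kinases phosphorylate. The third codon, which encodes that serine, is in capitals.
Cfl1: atggccTCTggtgtggctgtctctgatggt
Cfl2: atggcaTCTggagttacagtgaatgatgaa
The serine codon is TCT in both, and the bases after it differ.

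Positions are on GRCm38. *Limk1* (ENSMUSG00000029674) is on the reverse strand at chr5:134656039-134688598 and *Limk2* (ENSMUSG00000020451) on the reverse strand at chr11:3344256-3409189. *Pak1* (ENSMUSG00000030774) is on the forward strand at chr7:97788541-97912381 and *Pak3* (ENSMUSG00000031284) on the forward strand at chrX:143518591-143797796. *Rock2* (ENSMUSG00000020580) is on the forward strand at chr12:16894895-16987823, and *Rock1* (ENSMUSG00000024290) is on the reverse strand of chromosome 18. *Cfl1* (ENSMUSG00000056201) is on the forward strand at chr19:5490455-5495201 and *Cfl2* (ENSMUSG00000062929) on the reverse strand at chr12:54858809-54862877. *Ssh1* (ENSMUSG00000042121) is on the reverse strand at chr5:113937094-113993894 and *Ssh2* (ENSMUSG00000037926) on the forward strand at chr11:77216287-77460220. Whether reads were counted by strand is not given in the sources used here, so reads of a gene and of an overlapping partner may not have been told apart. *Cfl1* overlaps *Snx32*, on the opposite strand at a mean of 58.2 TPM, which is far below *Cfl1* itself. *Ssh2* overlaps the processed pseudogene *Gm12346* (6.32 TPM) and *Rock1* the pseudogene *Gm2531* (2.88 TPM), both on the same strand, at levels close enough to those of *Ssh2* and *Rock1* to leave their values uncertain.

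*Limk1*, the LIM kinase known for its role in dendritic spines, varied widely among the WT mice. In WT vehicle mice 1 to 8 it measured 64.9, 58.5, 35.9, 38.8, 55.3, 12.6, 40.8 and 12.1 TPM. In *Brd1*+/- vehicle mice 1 to 7 it measured 10.2, 14.2, 12.3, 12.2, 13.0, 13.9 and 12.7 TPM. Of the 8 WT vehicle mice, 6 lay above every *Brd1*+/- vehicle mouse, and mice 6 and 8 lay among them. In WT IMN mice 1 to 8 *Limk1* measured 14.0, 11.6, 11.9, 11.9, 37.6, 10.8, 10.3 and 27.0 TPM. In *Brd1*+/- IMN mice 1 to 8 it measured 12.04, 15.8, 16.0, 20.0, 14.0, 14.4, 15.6 and 12.7 TPM. Under IMN, WT mice 5 and 8 were the highest of both groups and the *Brd1*+/- mice were above most of the other WT mice. Group means were 39.8 ± 19.8 (SD, n = 8) in WT vehicle, 16.9 ± 9.98 (SD, n = 8) in WT IMN, 15.1 ± 2.47 (SD, n = 8) in *Brd1*+/- IMN and 12.6 ± 1.32 TPM (SD, n = 7) in *Brd1*+/- vehicle mice, and neighbors in this order overlapped within 1 SD.

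*Limk2*, the second LIM kinase, was the more abundant of the pair and far more even. It ran from 60.9 to 96.0 TPM (median 74.1) in WT vehicle, from 53.8 to 66.5 TPM (median 61.5) in *Brd1*+/- vehicle, from 59.5 to 71.8 TPM (median 64.1) in WT IMN and from 53.4 to 73.6 TPM (median 58.1) in *Brd1*+/- IMN mice. All 4 groups overlapped, and the highest value was that of WT vehicle mouse 2, the mouse with the highest cortical score.

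**Figure D1:**
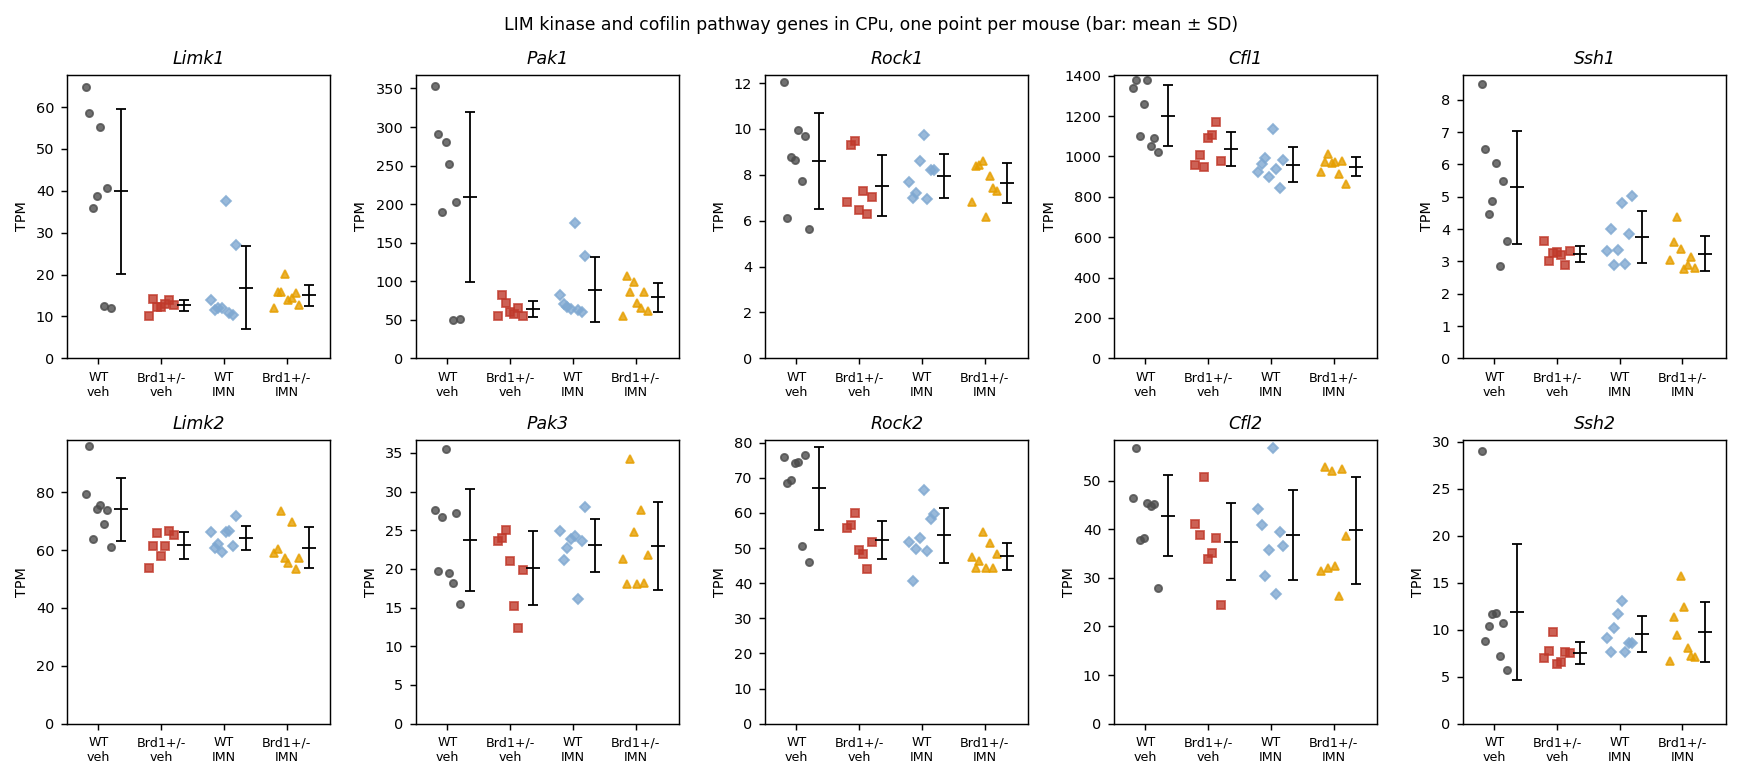
TPM (vertical axes, from 0) of the 10 genes in each of the 31 mice, by group (horizontal axes); points are mice and bars are the mean ± SD. *Limk1* and *Pak1* show 6 WT vehicle and 2 WT IMN mice far above the rest, while the 4 groups lie close together for *Limk2*, *Pak3*, *Cfl2* and *Rock1*.

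Of the upstream kinases, *Pak1*, which phosphorylates LIM kinases downstream of Rac and Cdc42, followed *Limk1* mouse by mouse. It measured 352.8, 291.1, 189.8, 281.1, 252.6, 49.6, 202.4 and 51.1 TPM in WT vehicle mice 1 to 8. In *Brd1*+/- vehicle mice it ran from 54.9 to 82.3 TPM (median 59.9), in WT IMN mice from 60.3 to 175.0 TPM (median 68.5) and in *Brd1*+/- IMN mice from 54.8 to 106.6 TPM (median 78.7). As for *Limk1*, WT vehicle mice 6 and 8 were low, and here they were below every *Brd1*+/- vehicle mouse, while WT IMN mice 5 and 8 were the highest IMN mice. *Pak3*, the X-linked PAK paralog of neurons, shared this pattern only in part. WT vehicle mice 6 and 8 were the lowest of their group, at 18.2 and 15.5 TPM, but the next mouse was at 19.4 TPM. WT IMN mouse 8 was the highest of its group, at 28.0 TPM, and mouse 5, at 24.2 TPM, was not set apart. *Pak3* ran from 15.5 to 35.5 TPM in WT vehicle, 12.4 to 25.02 TPM in *Brd1*+/- vehicle, 16.2 to 28.0 TPM in WT IMN and 18.0 to 34.2 TPM in *Brd1*+/- IMN mice.

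*Rock2*, the main ROCK transcript in these samples, measured 75.8, 68.5, 69.5, 74.3, 74.6, 50.7, 76.5 and 46.0 TPM in WT vehicle mice 1 to 8. It ran from 44.0 to 59.99 TPM in *Brd1*+/- vehicle, from 40.7 to 66.5 TPM in WT IMN and from 44.2 to 54.6 TPM in *Brd1*+/- IMN mice. The same 6 WT vehicle mice were above all *Brd1*+/- vehicle mice, by a much smaller margin than for *Pak1*. *Rock1* was low throughout, at group means of 8.58 ± 2.09 (SD, n = 8) in WT vehicle, 7.53 ± 1.32 (SD, n = 7) in *Brd1*+/- vehicle, 7.95 ± 0.955 (SD, n = 8) in WT IMN and 7.64 ± 0.863 TPM (SD, n = 8) in *Brd1*+/- IMN mice.

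*Cfl1*, non-muscle cofilin, was the most abundant of the 10 transcripts in each group. It ran from 1020 to 1379 TPM (median 1180) in WT vehicle, from 949 to 1168 TPM (median 1008) in *Brd1*+/- vehicle, from 843 to 1137 TPM (median 950) in WT IMN and from 861 to 1013 TPM (median 969) in *Brd1*+/- IMN mice. Of the 8 WT IMN mice, 7 were below every WT vehicle mouse, and the exception was WT IMN mouse 5. *Cfl2*, the cofilin best known from muscle, had group means of 42.8 ± 8.39 (SD, n = 8) in WT vehicle, 37.5 ± 7.95 (SD, n = 7) in *Brd1*+/- vehicle, 38.8 ± 9.17 (SD, n = 8) in WT IMN and 39.8 ± 11.0 TPM (SD, n = 8) in *Brd1*+/- IMN mice, and all 4 groups overlapped widely.

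The phosphatases that reactivate cofilin were low. *Ssh1* measured 8.49, 6.47, 4.47, 4.85, 6.03, 2.86, 5.48 and 3.64 TPM in WT vehicle mice 1 to 8. It ran from 2.87 to 3.64 TPM in *Brd1*+/- vehicle, from 2.88 to 5.02 TPM in WT IMN and from 2.75 to 4.37 TPM in *Brd1*+/- IMN mice. All but one of the WT vehicle mice were above the highest *Brd1*+/- vehicle mouse, mouse 8 by a narrow margin, and mouse 6 was below all of them. *Ssh2* ran from 5.72 to 29.0 TPM (median 10.5) in WT vehicle, with mouse 1 at 29.0 and the next mouse at 11.8 TPM, and from 6.37 to 9.77 TPM (median 7.54) in *Brd1*+/- vehicle mice. In WT IMN mice *Ssh2* ran from 7.61 to 13.0 TPM (median 8.88) and in *Brd1*+/- IMN mice from 6.72 to 15.7 TPM (median 8.76).

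For the other 9 genes too, neighboring group means in the order of levels overlapped within 1 SD. On TPM as deposited WT vehicle had the highest mean for each of the 10 genes, and the next group differed from gene to gene. After median-of-ratios scaling this held for 7 of the 10, and the highest mean was that of *Brd1*+/- IMN mice for *Pak3* and *Cfl2* and of WT IMN mice for *Rock1*, for which WT vehicle was the lowest.

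Genotype under vehicle was the comparison by which the pathway was picked. On the log2(TPM + 1) scale all 10 genes were below 0 in *Brd1*+/- relative to WT mice, with a median of −0.29 where the median of all 23200 genes tested was −0.13. *Limk1* differed by −1.38 (SE 0.32), a mean of 31.7% of the WT level, and *Pak1* by −1.42 (SE 0.39), or 30.6% of the WT level. *Ssh1* differed by −0.53 (SE 0.16) and *Ssh2* by −0.47 (SE 0.23). *Rock2* differed by −0.34 (SE 0.12), *Limk2* by −0.25 (SE 0.088), *Pak3* by −0.22 (SE 0.18), *Cfl1* by −0.21 (SE 0.091), *Cfl2* by −0.19 (SE 0.15) and *Rock1* by −0.15 (SE 0.14). Because the comparison chose the pathway, no call is given for its 10 genes. Over all genes, 12.1% were lower and 1.47% higher at a nominal p under 0.01 (13.6% in either direction). At an FDR of 5%, 0 of all genes (0.00%) passed in limma, and *Brd1* itself, at −0.71 (SE 0.10), narrowly missed it (limma adjusted p = 0.0556). At an unadjusted p under 0.05 there were 7168 genes. The count at an FDR of 5% rose to 5482 without WT vehicle mouse 8 and 4563 without mouse 6.

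The cortical score moved with this difference. All 6 WT vehicle mice with high *Limk1* were above a score of 4, and mice 6 and 8, at scores of 0.741 and 0.813, had *Limk1* within the *Brd1*+/- range. Without the mice above 4, which left WT vehicle mice 6 and 8 against the 7 *Brd1*+/- mice, 7 of the 10 genes were above 0. The median of all genes in that fit was 0.013. The mice left out held the 6 highest *Limk1* and *Pak1* levels of the WT vehicle group, so leaving them out raises both differences by construction. *Limk1* differed by 0.027, *Pak1* by 0.32, *Pak3* by 0.21, *Ssh2* by 0.19, *Rock1* by 0.15, *Rock2* by 0.11 and *Cfl2* by 0.050. *Limk2* differed by −0.074, *Ssh1* by −0.0048 and *Cfl1* by −0.0016. With the cortical score as a covariate, *Limk1* differed by −0.63 and *Pak1* by −0.49, and with the score of the striatal markers by −0.81 and −0.78. Without WT vehicle mouse 7 alone, the mouse with Y-linked transcripts, *Limk1* differed by −1.34 and *Pak1* by −1.38. Without WT vehicle mouse 1, *Ssh2* differed by −0.27. Scaling TPM between mice by the median of ratios moved the median of all genes to −0.00072, *Limk1* to −1.19, *Pak1* to −1.23, *Ssh1* to −0.37, *Ssh2* to −0.30 and *Rock2* to −0.15. It left *Limk2* at −0.064, *Pak3* at −0.035, *Cfl1* at −0.019, *Cfl2* at −0.0059 and *Rock1* at 0.017, so these 5 genes were near 0 on that scale and the direction of *Rock1* depends on it. Without *Brd1*+/- vehicle mouse 6 *Pak3* differed by −0.11, without *Brd1*+/- vehicle mouse 7 *Cfl2* by −0.096, and without WT vehicle mouse 1 *Rock1* by −0.084.

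**Figure D2:**
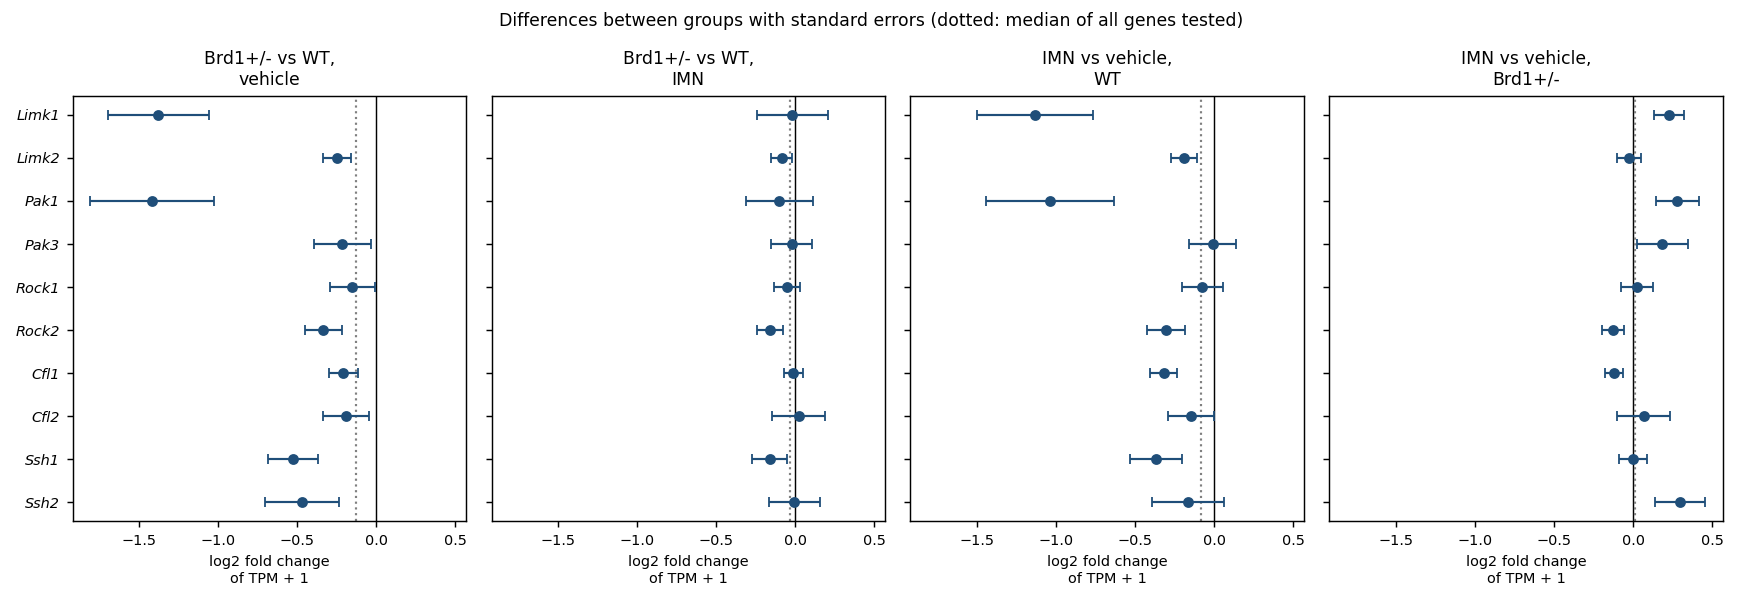
Log2 fold change of TPM + 1 (horizontal axes) of the 10 genes (vertical axis) in 4 comparisons; points are the differences, bars the standard errors, and dotted lines the median of all genes tested. *Limk1* and *Pak1* lie beyond −1 in both panels that involve WT vehicle mice, at −1.38 and −1.42 for genotype and −1.13 and −1.04 for IMN, and near 0 for genotype under IMN.

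Genotype under IMN used mice other than those in which *Limk1* picked the pathway, and asks whether these genes differ between the genotypes after the drug. The members were chosen with earlier results of these data known, so full independence from these mice is not assured. None of the 10 genes passed p under 0.01 in limma, where 0.703% of 23339 genes did (0.514% lower and 0.189% higher), and none passed the FDR of 5%, where 0.00428% did. The limma adjusted p of the 10 genes were all at least 0.998. The 1 gene of all that passed the FDR of 5% was *Brd1* itself, at −0.60 (limma adjusted p = 0.0396). At an unadjusted p under 0.05 there were 914 of all genes and 0 of the 10. *Limk1* differed by −0.019 (95% CI −0.49 to 0.46), *Limk2* by −0.085 (95% CI −0.23 to 0.057) and *Pak1* by −0.10 (95% CI −0.55 to 0.35). *Rock2* had the smallest p, at −0.16 (95% CI −0.33 to 0.017), and *Ssh1* differed by −0.16 (95% CI −0.39 to 0.072). *Cfl1*, the most tightly measured, differed by −0.011 (95% CI −0.14 to 0.11). *Rock1*, *Pak3*, *Ssh2* and *Cfl2* lay between −0.052 and 0.021. The median of the 10 genes was −0.037 and that of all genes −0.033.

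WT IMN mice 5 and 8 carried the 2 highest *Limk1* levels under IMN and the highest cortical scores. Without these mice *Limk1* was higher in *Brd1*+/- than in WT mice by 0.32, and it was the 1 gene of the 10 under the nominal threshold, where 0.734% of all genes were, a difference that failed the correction (limma adjusted p = 0.9999). Leaving out the highest *Limk1* levels of the WT group moves the difference in this direction by construction. Without mouse 5 alone the difference was 0.16 and without mouse 8 alone 0.096, in the same direction. Leaving out WT IMN mouse 2 brought *Rock2* to −0.21, under the nominal threshold (limma adjusted p = 0.891), where 1.09% of all genes were.

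IMN in WT mice was compared with the same WT vehicle mice that chose the pathway, so its values are not independent of those above and no p is given for *Limk1*. All 10 genes were below 0, with a median of −0.25 where that of 23579 genes was −0.082. *Cfl1* was the 1 of the other 9 genes under the nominal threshold in the lower direction, where 5.60% of all genes were (6.95% in either direction), and 0 in the higher direction, where 1.35% were. None of the 9 passed the FDR of 5%, where 0.00424% of all genes did. *Limk1* differed by −1.13 (SE 0.37), an IMN mean of 42.4% of vehicle. *Cfl1* differed by −0.32 (SE 0.087, limma adjusted p = 0.141), to 79.8% of vehicle, past the nominal threshold only. Values that missed the nominal threshold were *Pak1* at −1.04 (SE 0.40), *Rock2* at −0.31 (SE 0.12), *Limk2* at −0.19 (SE 0.080) and *Ssh1* at −0.37 (SE 0.16), with limma adjusted p of 0.160 to 0.194. The other 4 genes lay between −0.17 and −0.0087. Median-of-ratios scaling took *Cfl1* to −0.19, which was not past the nominal threshold (limma adjusted p = 0.187), and turned *Pak3* and *Rock1* to 0.11 and 0.038.

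Without the 8 mice above the cortical score of 4, which left WT vehicle mice 6 and 8 and 6 WT IMN mice, *Limk1* differed by −0.071 and *Cfl1* by −0.16 (limma adjusted p = 0.584). *Pak1* differed by 0.41, under the nominal threshold in the higher direction (limma adjusted p = 0.436), where 2.09% of all genes were in either direction. Leaving out the 6 highest *Pak1* levels of the WT vehicle group raises this difference by construction. The fit also leaves out WT IMN mice 5 and 8, the highest of their group for *Pak1*, which lowers it. Leaving out WT vehicle mouse 6 or 8 instead brought 4 of the 9 genes other than *Limk1* under the nominal threshold, where 13.6% and 15.3% of all genes were, and leaving out WT IMN mouse 5 brought 3, where 10.3% were. WT vehicle mice 6 and 8 had the lowest levels of *Pak1*, *Rock2* and *Cfl1* in their group, so leaving out either widens the difference by construction. These fits also changed the calls at an FDR of 5%. Without WT vehicle mouse 6, 1176 of all genes passed it, among them *Cfl1* (limma adjusted p = 0.0470) and *Pak1* (limma adjusted p = 0.0487). Without mouse 8, 2459 passed, among them *Cfl1* (limma adjusted p = 0.0401), *Rock2* (limma adjusted p = 0.0416) and *Pak1* (limma adjusted p = 0.0421). In a joint fit of the 4 groups 2291 passed, among them *Cfl1* (limma adjusted p = 0.0200), *Pak1* (limma adjusted p = 0.0408) and *Rock2* (limma adjusted p = 0.0490). With either marker score as a covariate 0 of the 9 genes were under the nominal threshold. *Cfl1* was then −0.20 with either score. *Pak1* was −0.16 with the cortical and −0.43 with the striatal score, and *Limk1* −0.35 and −0.57. Without WT vehicle mouse 7 *Cfl1* differed by −0.34 and *Limk1* by −1.10, and *Cfl1* stayed past the nominal threshold with each mouse left out in turn.

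In *Brd1*+/- mice, none of which scored above 4, IMN gave 0 calls among the 9 genes other than *Limk1*, against 1.83% of 23020 genes (0.964% lower and 0.869% higher). *Limk1* differed by 0.23 (SE 0.097), with 5 of 8 IMN mice above every vehicle mouse, and no p is given since its vehicle mice chose the pathway. *Pak1* differed by 0.28 (SE 0.14, limma adjusted p = 0.716) and *Ssh2* by 0.30 (SE 0.16, limma adjusted p = 0.746). *Cfl1* differed by −0.12 (SE 0.058, limma adjusted p = 0.700) and *Rock2* by −0.13 (SE 0.070, limma adjusted p = 0.752). The other 5 genes lay between −0.026 and 0.18. With the cortical score as a covariate *Pak1* was under the nominal threshold at 0.30 (limma adjusted p = 0.409), where 2.21% of all genes were. With the striatal score instead *Pak1* differed by 0.069 (limma adjusted p = 0.957), *Limk1* by 0.11 and *Ssh2* by 0.17.

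The effect of IMN in *Brd1*+/- mice minus that in WT mice was 1.36 (SE 0.40) for *Limk1* and 1.32 (SE 0.46) for *Pak1*. It was 0.46 (SE 0.29) for *Ssh2*, 0.37 (SE 0.19) for *Ssh1* and between 0.10 and 0.21 for the other 6 genes, where the median of all genes was 0.092. Under median-of-ratios scaling, which moved that median to 0.0053, *Limk1* was 1.22, *Pak1* 1.18, *Ssh2* 0.33 and *Ssh1* 0.24, and the other 6 lay between −0.027 (*Rock1*) and 0.073 (*Cfl2*). Without the 8 mice above a cortical score of 4, the difference was 0.30 (SE 0.17) for *Limk1* and −0.13 (SE 0.23) for *Pak1*, and it was −0.14 (SE 0.27) for *Ssh2*, −0.046 (SE 0.16) for *Ssh1* and between −0.18 and 0.056 for the other 6 genes. These differences hold the vehicle mice that chose the pathway and are given without a test.

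**Figure D3:**
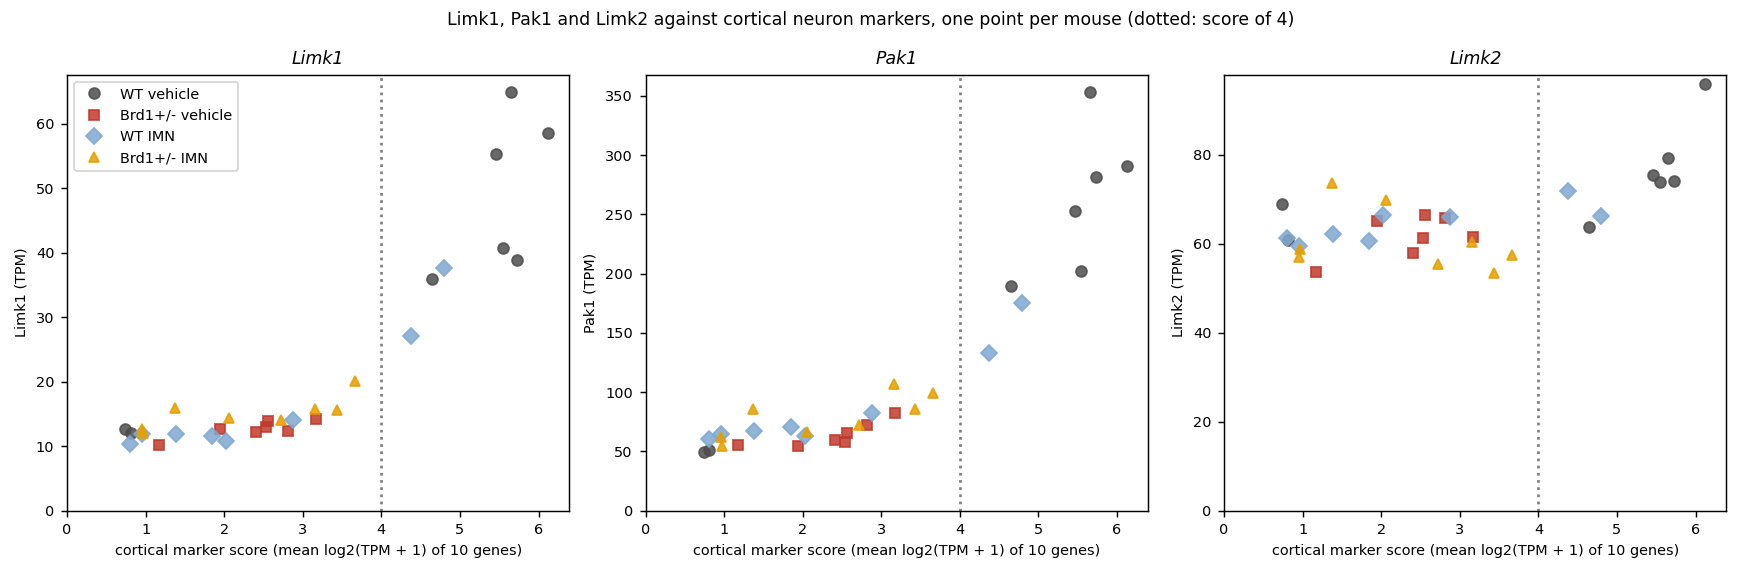
TPM of *Limk1*, *Pak1* and *Limk2* (vertical axes, from 0) against the cortical score of each of the 31 mice (horizontal axes, mean log2(TPM + 1) of 10 genes); colors and shapes are the groups and the dotted line is a score of 4. The 8 mice to the right of the line have *Limk1* of 27.0 TPM or more, and the 23 to its left of 20.0 TPM or less.

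Across all 31 mice, *Limk1* separated by the cortical score. It was at least 27.0 TPM in the 8 mice above a score of 4 and between 10.2 and 20.0 TPM in the other 23, and *Pak1* was at least 132.9 TPM in the former and between 49.6 and 106.6 TPM in the latter. The part of cortical tissue in these levels was not tested. Within the 23 mice, the group ranges of *Limk1* overlapped at 12.1 to 12.6 TPM in WT vehicle, 10.2 to 14.2 TPM in *Brd1*+/- vehicle, 10.3 to 14.0 TPM in WT IMN and 12.04 to 20.0 TPM in *Brd1*+/- IMN mice.

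Ratios of paralogs within a mouse cancel the scaling between mice, apart from the pseudocount of 1. *Limk1* over *Limk2*, as the log2 ratio of TPM + 1, averaged −1.08 ± 0.79 (SD, n = 8) in WT vehicle, −2.20 ± 0.098 (SD, n = 7) in *Brd1*+/- vehicle, −2.02 ± 0.60 (SD, n = 8) in WT IMN and −1.95 ± 0.26 (SD, n = 8) in *Brd1*+/- IMN mice, so *Limk2* was the higher transcript in every group mean. *Pak1* over *Pak3* averaged 2.84 ± 0.90 (SD, n = 8) in WT vehicle and between 1.64 and 1.81 in the other groups. *Cfl1* over *Cfl2* was even, between 4.59 and 4.79 in the group means, which is 24.0 to 27.7 transcripts of *Cfl1* for each of *Cfl2*. *Rock1* over *Rock2* lay between −2.83 and −2.50, and *Ssh1* over *Ssh2* between −1.30 and −0.95. In WT vehicle mice 6 and 8 alone, *Limk1* over *Limk2* was −2.36 and −2.25, where *Brd1*+/- vehicle mice ran from −2.33 to −2.04, and *Pak1* over *Pak3*, at 1.40 and 1.66, lay within the range of those mice.

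Under IMN the genotypes were compared for the 5 ratios by two-sided exact permutation tests. *Limk1* over *Limk2* differed by 0.067 (*Brd1*+/- minus WT, exact p = 0.789, adjusted p = 0.848 over the 5 pairs) and *Pak1* over *Pak3* by −0.077 (exact p = 0.752, adjusted p = 0.848). *Rock1* over *Rock2* had the smallest p, at 0.11 (exact p = 0.117, adjusted p = 0.587), and none of the 5 passed. Without WT IMN mice 5 and 8 the *Limk1* over *Limk2* difference was 0.38 (exact permutation p = 0.00266, adjusted p = 0.0133 over the 5 pairs). The mice left out there are those with the 2 highest *Limk1* levels of the WT IMN group, and they were left out after the values had been seen.

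**Figure D4:**
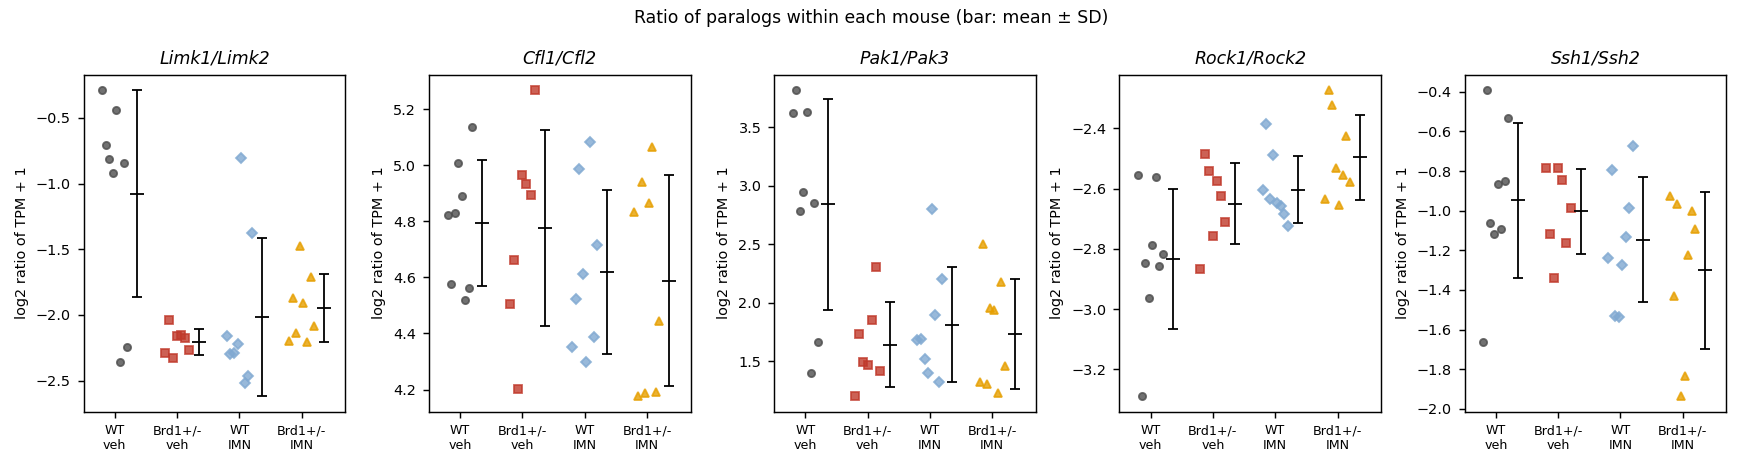
Log2 ratio of TPM + 1 between the 5 pairs of paralogs (vertical axes, not from 0) in each mouse, by group (horizontal axes); points are mice and bars the mean ± SD. The WT vehicle mice fall into 6 high and 2 low for *Limk1*/*Limk2*, while *Cfl1*/*Cfl2* overlaps in all groups.

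*Limk1* and *Pak1* moved together over the mice, and their promoters are shown with that of *Limk2*, the paralog, for comparison. The sequences are the 250 bases before the RefSeq gene start on GRCm38.p6, 5′ to 3′ on the strand of the gene. *Limk1* is chr5:134688591-134688840 (reverse), *Limk2* chr11:3409239-3409488 (reverse) and *Pak1* chr7:97788291-97788540 (forward). Capitals mark the cAMP response element TGACGTCA, the GC box GGGCGG and the E-box CACGTG, searched on both strands.
Limk1: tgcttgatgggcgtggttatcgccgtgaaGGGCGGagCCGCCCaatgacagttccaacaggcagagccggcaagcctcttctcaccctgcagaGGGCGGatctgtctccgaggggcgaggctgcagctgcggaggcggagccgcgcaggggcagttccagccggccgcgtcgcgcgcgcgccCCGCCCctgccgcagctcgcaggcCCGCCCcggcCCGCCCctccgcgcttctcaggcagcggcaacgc
Limk2: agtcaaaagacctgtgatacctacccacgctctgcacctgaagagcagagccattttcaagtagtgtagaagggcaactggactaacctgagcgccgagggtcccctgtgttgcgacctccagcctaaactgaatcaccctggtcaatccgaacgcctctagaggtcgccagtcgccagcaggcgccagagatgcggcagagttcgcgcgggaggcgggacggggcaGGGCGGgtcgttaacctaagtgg
Pak1: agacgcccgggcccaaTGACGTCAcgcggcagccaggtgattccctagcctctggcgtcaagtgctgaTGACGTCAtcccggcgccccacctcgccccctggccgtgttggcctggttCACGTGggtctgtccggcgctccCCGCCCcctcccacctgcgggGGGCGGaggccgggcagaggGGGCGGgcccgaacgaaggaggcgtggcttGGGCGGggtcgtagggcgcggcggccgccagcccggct
The *Limk1* window holds 6 GC boxes, the *Limk2* window 1 and the *Pak1* window 4 with 2 cAMP response elements and 1 E-box. Of 32851 mouse promoter windows of this length, 1.55% hold TGACGTCA, 32.7% GGGCGG and 6.02% CACGTG. Of the 16 windows of the 9 genes in the RefSeq table, 1 holds TGACGTCA, 10 hold GGGCGG and 3 hold CACGTG, and *Rock1* was not among them. A match is a description of the letters and not a binding site.

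The genes whose levels were most like those of *Limk1* were taken by Pearson's r of log2(TPM + 1) over 17366 genes with a mean TPM of at least 1. Over all 31 mice these were *Ube2ql1* (r = 0.981), *Adcy2*, which encodes an adenylyl cyclase (r = 0.981), *Sept8*, a septin (r = 0.979), *Asic2*, an acid-sensing ion channel (r = 0.979), and *Ndrg3* (r = 0.979). Over the 16 IMN mice they were the formin *Fhod3* (r = 0.986), *Cd34* (r = 0.973), *Adcy2* (r = 0.972), the G protein subunit *Gng2* (r = 0.969) and *Sept8* (r = 0.967). The mice form 2 clusters on *Limk1*, 23 below and 8 above 25 TPM. Within the 23 mice the r of these 8 genes ran from 0.681 (*Ndrg3*) to 0.834 (*Adcy2*), below their r over all mice. Within the 8 mice it ran from 0.406 (*Gng2*) to 0.946 (*Ube2ql1*). *Fhod3* had a median of 17.2 TPM in WT vehicle mice and of 1.81 to 2.83 TPM in the other groups, and *Ube2ql1* of 146.6 TPM and of 29.7 to 39.2 TPM.

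Within the pathway, *Pak1* ranked 23rd of these genes for likeness to *Limk1* (r = 0.973 over 31 mice, 0.750 within the 23 and 0.890 within the 8). *Ssh1* followed at r = 0.882 over all mice, −0.022 within the 23 and 0.840 within the 8, *Rock2* at 0.821, −0.19 and 0.649, and *Cfl1* at 0.813, 0.217 and 0.913. *Limk2* had r = 0.719, 0.059 and 0.662. *Pak3* had the lowest r of the pathway over all mice, at 0.346, with 0.15 within the 23 and −0.48 within the 8. The punches differed in tissue, as the cortical markers show, so these values describe the samples and carry no test.

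Around the 10 genes, 48 of 49 genes in 5 lists of the wider pathway were measured, and *Pdxp* was not analysed here. The lists are small GTPases, exchange factors and scaffolds, other PAK, MRCK and TESK kinases, cofilin co-factors with further phosphatases and the cofilin paralog *Dstn*, and actin with its monomer-binding proteins. In genotype under vehicle 12 of the 48 were lower and 0 higher at the nominal threshold, where 12.1% of all genes were lower and 1.47% higher, with a median of −0.22. The count of 12 ran from 8, for example without WT vehicle mouse 5 (8.89% of all genes), to 22 without WT vehicle mouse 8 (22.4%), and was 3 with the cortical (2.21%) and 1 with the striatal score (1.48%) as a covariate. The list genes share this comparison with the choice of the pathway, and nothing is read from their count. They included *Dstn*, destrin, at −0.49 (SE 0.12), *Coro1a*, a coronin that binds filaments, at −0.86 (SE 0.21), *Pfn2*, the neuronal profilin, at −0.43 (SE 0.11), *Pak7* (now *Pak5*), a further PAK kinase, at −1.12 (SE 0.32), and *Kalrn*, the spine exchange factor kalirin, at −0.66 (SE 0.19).

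In genotype under IMN, 1 of the 48 was lower and 0 higher, where 0.514% of all genes were lower and 0.189% higher, with a median of −0.059. With the striatal score as a covariate 4 were called, where 0.985% of all genes were, and with single mice left out 0 to 1. The count was 0 under median-of-ratios scaling (0.676% of all genes) and with mouse number as a block (0.673%). It was also 0 in the joint fit (0.512%) and with the cortical score as a covariate (0.840%). The 1 gene was *Arhgef6*, an exchange factor for Rac and Cdc42 that binds PAK, at 3.72 ± 0.822 TPM in WT (SD, n = 8) and 2.73 ± 0.354 TPM in *Brd1*+/- mice (SD, n = 8), a log2 change of −0.32 (SE 0.11, limma adjusted p = 0.998). *Dstn*, *Coro1a*, *Pfn2*, *Pak7* and *Kalrn* were not called there.

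In IMN against vehicle in WT mice, 5 of the 48 were lower and 2 higher, where 5.60% of all genes were lower and 1.35% higher, with a median of −0.18. The count of 7 ran from 0 without WT vehicle mouse 1 (4.07% of all genes) to 18 without WT vehicle mouse 8 (15.3%), with 15 without WT IMN mouse 5 (10.3%) and 13 without WT vehicle mouse 6 (13.6%), and was 0 with the cortical (1.40%) or the striatal score (1.28%) as a covariate. *Rhoc*, a small GTPase, differed by −0.33 (SE 0.10), the thymosin *Tmsb10* by −0.51 (SE 0.17), the twinfilin *Twf2* by −0.64 (SE 0.21), *Coro1a* by −0.62 (SE 0.21) and *Dstn* by −0.40 (SE 0.14). *Phactr1*, which binds actin monomers and protein phosphatase 1, was higher by 0.63 (SE 0.20) and the Rac exchange factor *Tiam2* by 0.49 (SE 0.16). The limma adjusted p of these 7 genes ran from 0.141 to 0.143. In *Brd1*+/- mice IMN left 1 of the 48 lower, the atypical small GTPase *Rnd3* at −0.41 (SE 0.13), and 1 higher, the cofilin kinase *Tesk2* at 0.31 (SE 0.10), both at a limma adjusted p of 0.526, where 0.964% of all genes were lower and 0.869% higher. Without the mice above a cortical score of 4, 0 of the 48 were called for genotype under vehicle, 0 for genotype under IMN and 1 for IMN in WT mice, where 0.892%, 0.734% and 2.09% of all genes were. None of the 48 genes passed an FDR of 5% in the pairwise fits of all mice with the filter at 0.1 TPM and no other term. For genotype under vehicle, 8 did among genes with a mean of at least 1 TPM (10.5% of all genes in that fit), 17 with mouse number as a block (15.4%), 17 in a joint fit of the 4 groups (19.5%), 18 without WT vehicle mouse 6 (19.9%) and 22 without mouse 8 (23.8%). For IMN in WT mice, 13 did in the joint fit (9.02%), 2 without WT vehicle mouse 6 (5.03%) and 13 without mouse 8 (10.5%). The cortical score moves with both of these comparisons, which hold WT vehicle mice, where its part was not tested.

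**Figure D5:**
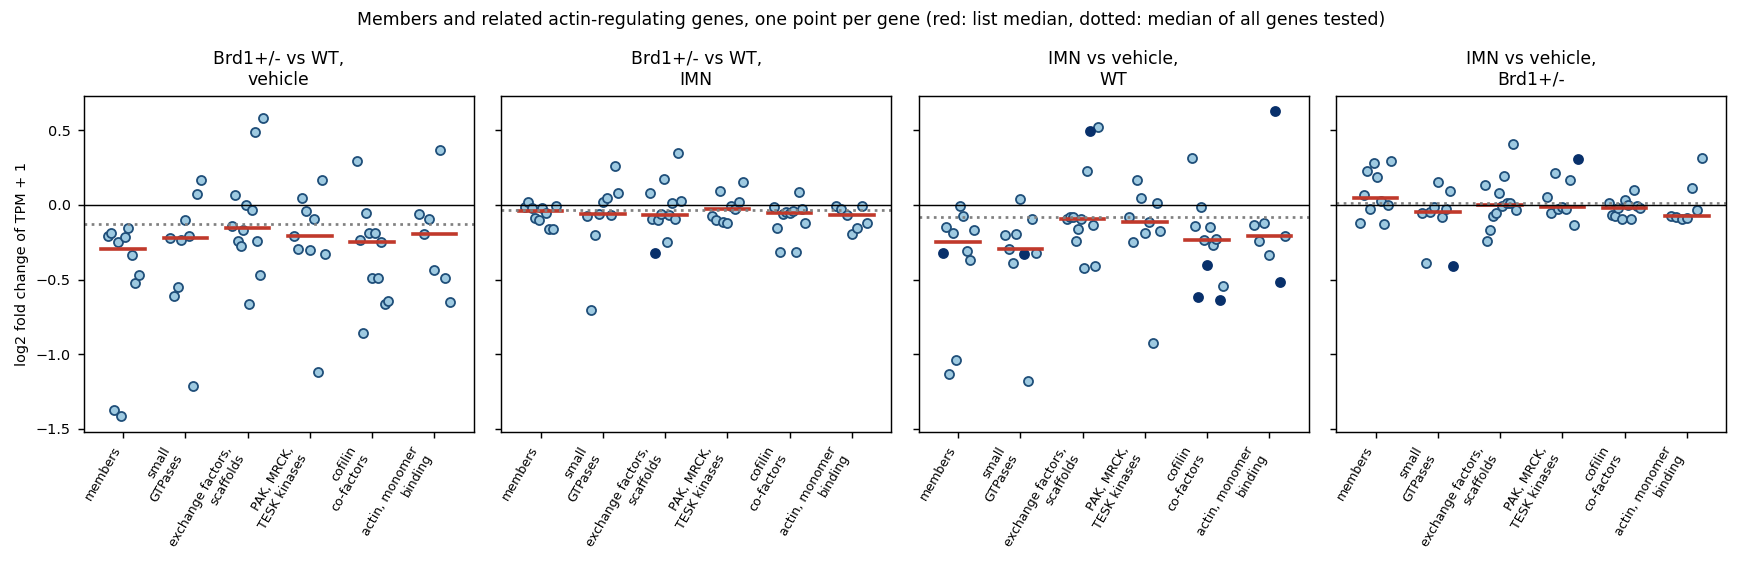
Log2 fold change of TPM + 1 (vertical axes) of the 10 genes and of the 5 lists around them (horizontal axes), one point per gene, in 4 comparisons; red lines are list medians, dotted lines the median of all genes tested, and dark points are genes at p under 0.01 in the 3 comparisons other than genotype under vehicle, and *Limk1* is not tested in the comparisons of IMN with vehicle. The list medians lie below the dotted line for genotype under vehicle and close to it for genotype under IMN, where 1 list gene is dark.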

How the data were processed

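Libraries of 31 CPu punches were read as 50 bp single ends (BGISEQ-500). The authors aligned them to GRCm38 with HISAT2 2.1.0 and quantified genes with StringTie 1.3.4, and deposited TPM for 52636 Ensembl genes, which sum to between 999787 and 999918 per mouse. TPM holds no read counts, so the depth behind a value is unknown, and the edgeR test of the study, which needs counts, was not run. Precision is therefore judged by how far mice of a group differ. Symbols and positions came from GENCODE M21 (52403 of the identifiers), promoters from RefSeq.

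Pairs of groups were fitted with limma 3.58.1 (R 4.3.3, trended prior) on log2(TPM + 1). A gene entered a fit if 7 or more of its mice exceeded 0.1 TPM. Tests were two-sided, at p under 0.01 and at a Benjamini-Hochberg FDR of 5%. Fold changes on this scale understate those of low genes. Paralog ratios were compared by exact permutation (scipy 1.17.1). The fit was tested on data simulated from the IMN groups with independent noise for each gene. Such data do not hold the tissue differences shared by genes in the WT vehicle mice. Genes named are the 10 of the pathway, *Brd1*, up to 3 per list and comparison with the smallest p under 0.01, the 5 most like *Limk1* over all or over IMN mice, and marker genes. The members and lists were chosen with earlier results of these data known.

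Other settings tried were median-of-ratios scaling, marker scores as covariates, a block for mouse number, a joint fit of the 4 groups, a pseudocount of 0.1, filtering on a mean of 1 TPM or not at all, and leaving out single mice. The exclusion of mice with a cortical score above 4 was added after seeing the data. Other brain regions of the study were not analysed here.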

Additional observations from a re-analysis of the deposited data

Results flagged for a closer look

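*Ssh2* in WT vehicle mouse 1 was 29.0 TPM, where the next of the 8 mice was 11.8 TPM, a gap larger than Dixon's criterion allows for a group of that size. *Ssh2* in *Brd1*+/- vehicle mouse 3 was 9.77 TPM, where the next was 7.71 TPM. These were the 2 values so marked among 40 pairs of gene and group, and chance marks about 1 in 20.

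In WT vehicle mouse 7, 4 Y-linked genes summed to 26.8 TPM, where no other mouse was above 0.188 TPM, and the mouse also had *Xist* at 79.2 TPM. Its *Limk1* of 40.8 TPM and *Pak1* of 202.4 TPM lay among those of the other WT vehicle mice with a high cortical score.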

How the results depend on the processing

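The limits are the missing read counts, the lack of scaling between mice in TPM and the 8 mice with cortical markers, all of them WT. For genotype under vehicle, which chose the pathway, no count of members is given, and *Limk1* is left out of the counts for IMN. All genes at p under 0.01 in that comparison were 5005 in a joint fit of the 4 groups, 512 with the cortical score, 343 with the striatal score and 188 without the mice above a cortical score of 4, against 3153. *Limk1* was −0.63 with the cortical score and 0.027 without those mice, and *Pak1* 0.32. For genotype under IMN, 1 member was called without those mice, and 97 genes with a mean of at least 1 TPM against 164. *Limk1*, at −0.019 as reported, was 0.027 under median-of-ratios scaling, 0.0107 with the cortical score, 0.00591 with the striatal score and 0.32 without those mice. Signs also turned for *Pak3* (0.0223), *Cfl1* (0.0358) and *Ssh2* (0.0381) under scaling, *Ssh2* with the scores (0.00530 and 0.00281), and without those mice for *Pak1* (0.19), *Pak3* (0.0383), *Rock1* (0.00118), *Cfl1* (0.0371), *Ssh2* (0.0465) and the *Pak1*/*Pak3* ratio (0.15).

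For IMN in WT mice, the members called were 0 under scaling, 4 in the joint fit, 0 with either score and 1 (*Pak1*, now higher) without those mice, against 1, and all genes 3424 (joint fit), 329 (cortical score), 301 (striatal score) and 429 (mice left out) against 1639. *Limk1* was −0.0709 without those mice. Signs turned for *Pak3* under scaling (0.11), with the cortical and striatal scores (0.18 and 0.0192) and without those mice (0.36), for *Rock1* under scaling, with the cortical score and without those mice (0.0382, 0.0539 and 0.17), and for *Cfl2* and *Ssh2* with the cortical score (0.0260 and 0.0999), the striatal score (0.0352 and 0.0136) and without those mice (0.00947 and 0.44). Without those mice *Rock2* (0.0560), *Ssh1* (0.0451) and *Pak1* (0.41) turned too. For IMN in *Brd1*+/- mice, 1 member (*Pak1*) was called with the cortical score (2.21% of all genes), and the striatal score turned *Pak3* (−0.0409) and *Rock1* (−0.12). The difference of the IMN effect for *Pak1* turned to −0.133 without those mice. The cause was not tested in any of these.

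With each mouse left out in turn, the members called ranged from 0 to 1, 1 to 4 and 0 to 0 in the order genotype under IMN, IMN in WT and IMN in *Brd1*+/- mice. With genotype under vehicle first, all genes called ranged from 2036 to 5154, 127 to 252, 905 to 3576 and 306 to 498, and *Limk1* from −1.58 to −1.25, −0.0924 to 0.16, −1.34 to −1.003 and 0.17 to 0.27. The high counts for genotype under vehicle came without WT vehicle mouse 8 (5154 genes) or 6 (4576). Under IMN *Pak1* ranged from −0.17 to 0.0529, *Pak3* from −0.11 to 0.0202, *Cfl1* from −0.0371 to 0.0243, *Cfl2* from −0.0500 to 0.10 and *Ssh2* from −0.10 to 0.0563. In WT mice *Pak3* ranged from −0.0860 to 0.0780 and *Ssh2* from −0.28 to 0.0264, and in *Brd1*+/- mice *Rock1* from −0.00870 to 0.0779, *Cfl2* from −0.0291 to 0.14 and *Ssh1* from −0.0512 to 0.0226. The *Limk1*/*Limk2* ratio ranged from −0.00442 to 0.24, *Cfl1*/*Cfl2* from −0.10 to 0.0342 and *Pak1*/*Pak3* from −0.19 to 0.0640.

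Mouse numbers were shared between groups without a stated pairing, and same-numbered mice deviated together with correlations of −0.39 to 0.41, so they were not taken as pairs. With mouse number as a block (replicate block), the members called were 0, 1 and 1 in the same order of the 3 comparisons (0.673%, 5.08% and 2.15% of all genes), and *Ssh1* turned to 0.0209 in *Brd1*+/- mice. *Limk1* was −1.58 under vehicle and −0.019 under IMN in that fit. The block leaves WT vehicle mouse 8, which has no partner, without weight for genotype under vehicle. At an FDR of 5%, that comparison gave 0 genes in all, 3583 with the block, 5482 without mouse 8 and no block, 4563 without mouse 6, 1833 among genes with a mean of at least 1 TPM and 4963 in the joint fit.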
